A study of Mus musculus with 24 samples.

Results

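The canonical Wnt feedback and target genes are genes whose transcription is raised by β-catenin in many tissues, several of which in turn dampen the pathway. The 10 genes *Axin2*, *Nkd1*, *Nkd2*, *Notum*, *Apcdd1*, *Rnf43*, *Znrf3*, *Lef1*, *Tcf7l2* and *Sp5* were chosen by name as a readout of β-catenin activity, with earlier results of these data known, out of 19938 genes measured. Each of the 10 had 1 probe set, and all 10 lay above the 25th percentile of genes in mean signal.

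When a Wnt ligand binds its receptors, β-catenin escapes breakdown by the destruction complex, enters the nucleus and joins DNA-binding proteins of the TCF/LEF family at target genes. Some targets encode brakes on the pathway, so their transcript levels are widely used as a gauge of how active it is. In the second heart field, the progenitor pool that adds cells to both poles of the heart tube, Wnt/β-catenin signalling and the T-box factor *Tbx1* are both known regulators of progenitor behaviour.

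Transcripts of the anterior heart field (AHF) were profiled on Affymetrix Mouse Gene ST arrays, with tissue microdissected from embryos at E9.5 with 19 to 21 somite pairs, with 4 arrays in each of 6 groups. *Tbx1 LOF* embryos carried *Mef2c-AHF-Cre* with either 2 floxed *Tbx1* alleles or 1 floxed and 1 null allele. *β-cat LOF* embryos carried *Mef2c-AHF-Cre* and 2 floxed *β-catenin* alleles, and rescue embryos had the *Tbx1 LOF* genotype plus 1 floxed *β-catenin* allele. Each mutant had its own controls. The study's methods describe these controls as floxed heterozygotes without Cre, whereas the sample labels name wild type and Cre-carrying heterozygous littermates, which leaves the genotype of the controls unsettled. Cre was driven by an AHF enhancer of *Mef2c*, which is active in mesoderm, whereas the dissected pharyngeal tissue also holds endoderm, ectoderm and neural crest, and each array held RNA pooled from several embryos. In such bulk tissue, fewer cells of a type and less RNA per cell cannot be told apart.

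Promoter sequence bears on these genes because TCF/LEF proteins bind DNA directly. The upstream 250 bases of *Sp5* and *Axin2* are shown as the windows with the most and with no matches to 4 versions of the core TCF/LEF letters, each spelled out with its share of all promoters after the sequences. In RefSeq (GRCm38.p6), the *Sp5* stretch is chr2:70474673-70474922 and the *Axin2* stretch chr11:108920099-108920348, both on the plus strand and upstream of the annotated start, and the capitals mark matches (none in *Axin2*).
Sp5: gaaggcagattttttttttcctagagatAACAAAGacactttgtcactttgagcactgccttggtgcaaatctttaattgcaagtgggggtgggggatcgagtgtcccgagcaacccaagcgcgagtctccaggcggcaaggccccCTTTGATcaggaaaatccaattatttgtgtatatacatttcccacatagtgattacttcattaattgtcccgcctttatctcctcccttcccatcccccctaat
Axin2: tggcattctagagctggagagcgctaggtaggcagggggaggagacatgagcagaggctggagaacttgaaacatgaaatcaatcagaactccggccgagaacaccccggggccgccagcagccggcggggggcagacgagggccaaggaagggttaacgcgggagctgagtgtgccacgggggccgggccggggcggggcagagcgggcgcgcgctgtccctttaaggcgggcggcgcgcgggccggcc
The search covered both strands of windows of 300 bases (250 before and 50 after the start), and a match is only a stretch of letters. The *Sp5* window held CTTTGTT on the minus strand, its stretch beginning at position -222 from the start, and CTTTGAT on the plus strand, beginning at -104. Windows of 7 of the 10 genes were searched, 12 in all, and none of *Apcdd1*, *Notum* or *Znrf3*. For the 10 genes the search left out a chromosome that the share of all promoters includes. Matches lay in 3 of the 12 windows, of *Sp5*, *Lef1* and *Tcf7l2*, against 16.9% of all 32851 promoter windows, of which 1.94% had 2 or more matches as *Sp5* did. Singly, CTTTGAA was in 5.14% of all windows, CTTTGAT in 3.73%, CTTTGTA in 3.63% and CTTTGTT in 5.85%. The other *Lef1* and *Tcf7l2* windows, which belong to other starts of the same genes, held no match.

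The deposited values are log2 intensities, and a difference of 1 on this scale is a doubling. Array medians lay between 7.998 and 8.14. *Tbx1* was lower in *Tbx1 LOF* than in its controls by 0.64 (SE 0.09, adjusted p = 0.00626, 0.640-fold), and its change in rescue was -0.31 (SE 0.09, adjusted p = 0.9999), with all 4 rescue arrays below all 4 controls. *Ctnnb1*, which encodes β-catenin, had a log2 fold change of -0.03 in *β-cat LOF* (SE 0.06, 95% interval 0.903- to 1.07-fold), and where its probe set lies relative to the floxed exons was not analysed here. In rescue its change was -0.05 (SE 0.06, limma adjusted p = 0.9999, 95% interval 0.889- to 1.05-fold). The rescue arrays lay at 13.11 to 13.14 and their controls at 13.16 to 13.20 (two-sided exact permutation p = 0.0286, the smallest that 4 arrays against 4 allow). Of all genes, 2.97% had no overlap in rescue. All 10 measured AHF progenitor markers were above the median of all genes. Markers of the heart tube, which the dissection left out, were measured as well. Whether their signal came from heart tube tissue or from AHF cells was not tested. The mean of 14 heart tube markers ranged from 9.97 to 10.30 in *Tbx1 LOF* against 9.03 to 9.58 in its controls, from 9.19 to 9.76 in *β-cat LOF* against 9.78 to 12.22 in its controls, and from 9.18 to 9.73 in rescue against 8.87 to 9.68 in its controls.

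None of the 10 Wnt feedback and target genes passed an adjusted p of 0.05 in any of the 3 mutants, and only *Rnf43* in *Tbx1 LOF* passed an unadjusted p of 0.05. Of all genes, 6 passed the adjusted threshold in *Tbx1 LOF* (0.0301%; 0 with the replicate number as a block), 0 in *β-cat LOF* and 0 in rescue. Over the 30 tests (10 genes in 3 comparisons), the log2 fold changes ran from -0.19 to 0.16 and the lowest adjusted p was 0.875. The 95% intervals of all 30 lay between 0.762-fold and 1.27-fold. The replicate arrays were close for most of these genes. Their residual SD within groups had a median of 0.0944, against 0.112 for all genes, and ran from 0.0596 for *Tcf7l2* to 0.174 for *Nkd1*.

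**Figure D1:**
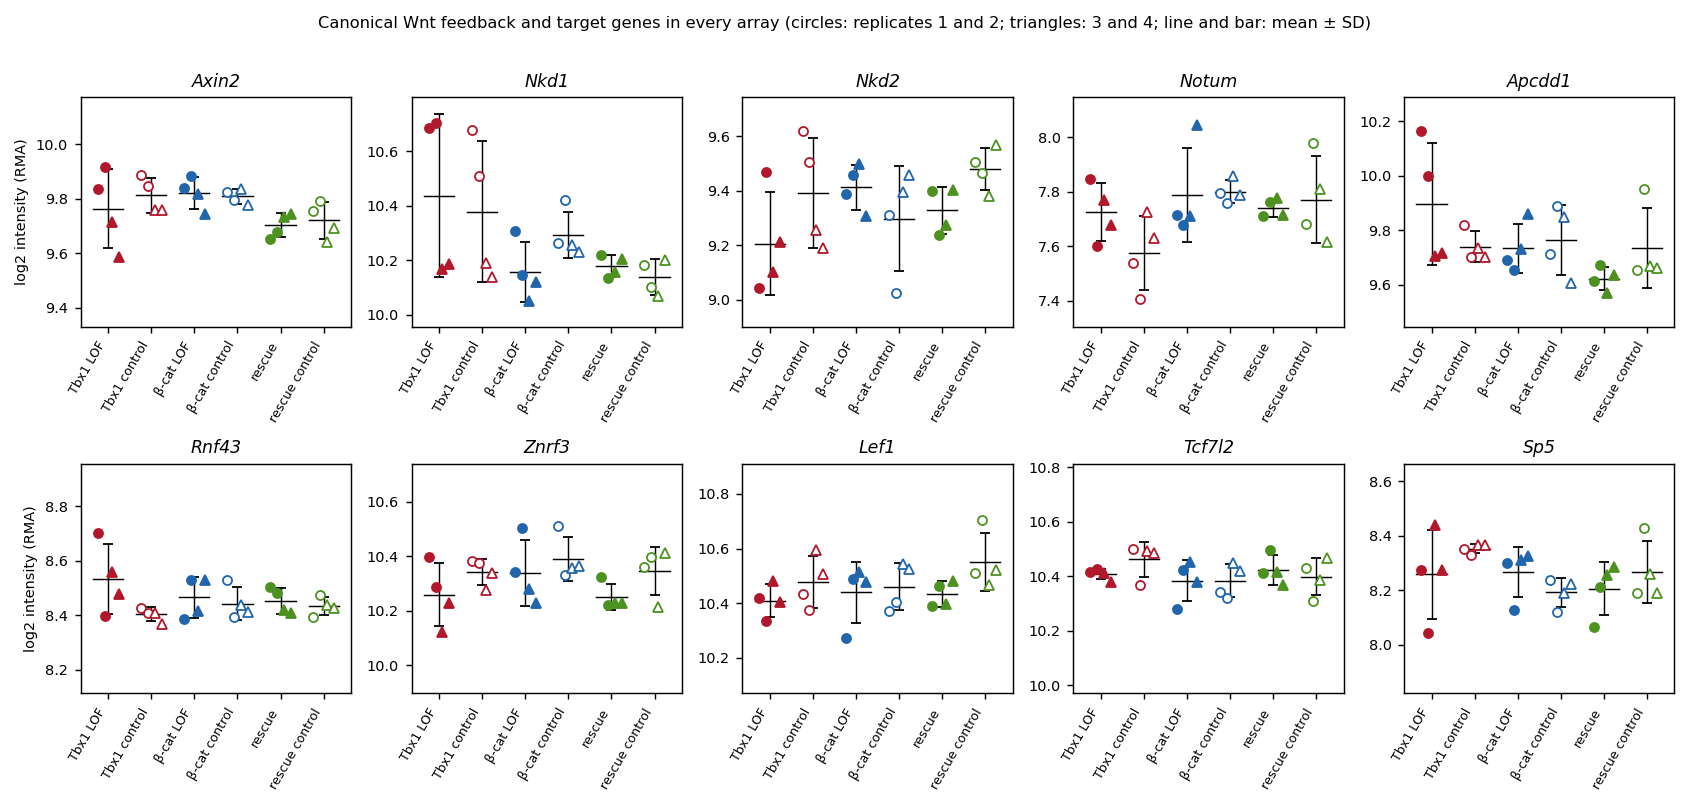
Log2 RMA intensity (y axis) of each gene in all 24 arrays, by group (x axis). Filled points are mutants and open points controls, circles are replicates 1 and 2, triangles replicates 3 and 4, and each line with a bar is the group mean ± SD (n = 4). In every panel each mutant overlaps its own controls, and *Nkd1* splits by replicate number in the *Tbx1* experiment.

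Loss of β-catenin in the AHF is the comparison that addresses the pathway most directly. In *β-cat LOF*, 0 of the 10 genes passed an unadjusted p of 0.05, against 1140 of all genes (5.72%), and 0 of 10 had mutant and control arrays that did not overlap, against 2.84% of all genes. The 10 log2 fold changes had a median of -0.01, against 0.01 for all genes, and their median absolute size was 0.0267, against 0.0582. All 10 intervals held 0, and together they spanned 0.772-fold to 1.25-fold.

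*Axin2*, a scaffold of the destruction complex and a widely used feedback target, had values of 9.84, 9.88, 9.82 and 9.74 in *β-cat LOF*, against 9.83, 9.80, 9.84 and 9.78 in its controls. The groups overlapped throughout, and the mutant values surrounded those of the controls. The log2 fold change was 0.01 (SE 0.06, limma adjusted p = 0.984), with a 95% interval of 0.927- to 1.10-fold. *Lef1*, a DNA-binding partner of β-catenin that is itself a target, had 10.27, 10.49, 10.52 and 10.48 in *β-cat LOF*, against 10.37, 10.40, 10.54 and 10.52 in its controls. Replicate 1 of the mutants was the lowest of the 8 arrays, and the other mutants lay within the control range. Its log2 fold change was -0.02 (SE 0.06, limma adjusted p = 0.971, 0.899- to 1.08-fold).

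*Nkd1* and *Nkd2* encode the Naked cuticle proteins, which bind Dishevelled and restrain signalling. *Nkd1* had 10.31, 10.15, 10.05 and 10.12 in *β-cat LOF*, against 10.26, 10.42, 10.26 and 10.23 in its controls. In all, 3 of the 4 mutant arrays lay below every control, and replicate 1 of the mutants lay inside their range. The log2 fold change was -0.14 (SE 0.11, limma adjusted p = 0.875, 0.772- to 1.07-fold) and the exact permutation p was 0.114. The SE comes from all 24 arrays and includes the wide spread of *Nkd1* in the *Tbx1* experiment described further on. With replicates 1 and 2 set apart from 3 and 4 as a block, the SE was 0.05 at the same change, which passed an unadjusted p of 0.05 but not the adjusted one (adjusted p = 0.447). *Nkd2* had 9.39, 9.46, 9.496 and 9.31 in *β-cat LOF*, against 9.31, 9.02, 9.40 and 9.46 in its controls, a log2 fold change of 0.11 (SE 0.10, limma adjusted p = 0.878). The lowest of these controls, replicate 2, was 9.02, and without it the change was 0.02.

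*Sp5*, a zinc finger factor and direct target whose promoter is shown above, had 8.30, 8.13, 8.31 and 8.33 in *β-cat LOF*, against 8.24, 8.12, 8.19 and 8.22 in its controls. Here 3 of the 4 mutant arrays lay above every control and replicate 2 did not, giving a log2 fold change of 0.07 (SE 0.07, limma adjusted p = 0.888; exact permutation p = 0.2). *Tcf7l2*, another TCF/LEF factor, differed by -9.1e-05 between the group means (SE 0.05, 0.931- to 1.07-fold). The membrane and secreted brakes were also within their spread. *Rnf43* and *Znrf3* encode ubiquitin ligases that clear Frizzled receptors from the cell surface, *Notum* an enzyme that inactivates Wnt ligands, and *Apcdd1* a membrane glycoprotein that inhibits signalling. Their log2 fold changes were 0.02, -0.05, -0.01 and -0.03 in that order, with limma adjusted p from 0.915 to 0.989. At an unadjusted p, 12 of 14 heart tube and 5 of 8 endothelial markers were lower in the same comparison, and 4 of 12 neural tube markers were higher. The medians over all 14 heart tube and all 8 endothelial markers were -1.19 and -0.16. The part of these tissues in the Wnt values was not tested. Control replicate 2 had the most *Nppa*, a heart chamber gene (12.77, against 8.83 to 11.23 in the other 3 controls), and without it 0 of the 10 genes passed an unadjusted p, with *Nkd1* at -0.09.

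**Figure D2:**
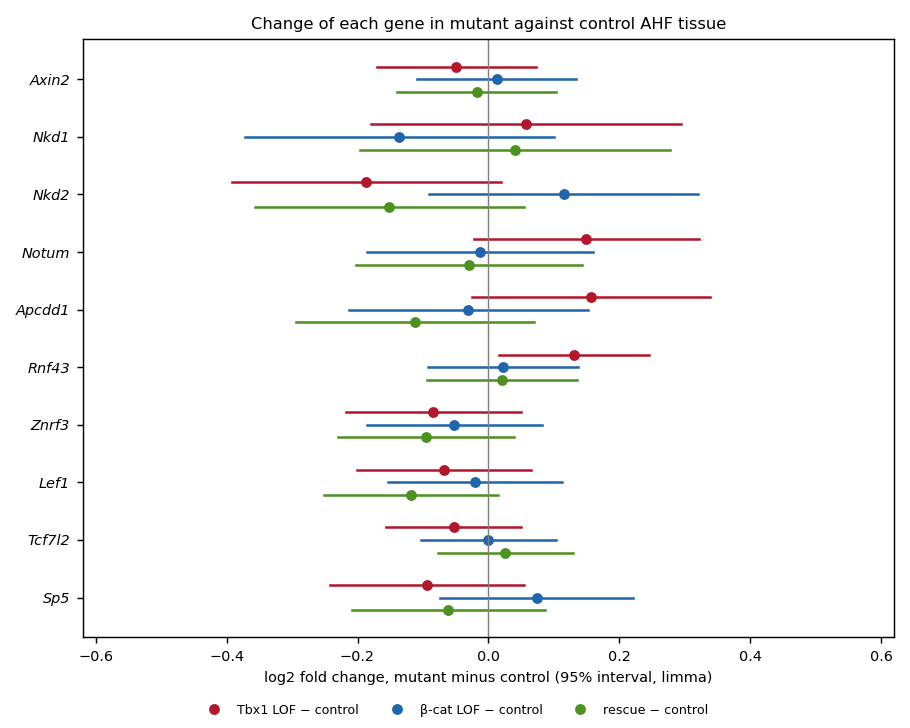
Log2 fold change of each gene (points; x axis, mutant minus control) with its 95% interval from limma (lines) in *Tbx1 LOF*, *β-cat LOF* and rescue, over 4 mutant and 4 control arrays each. The interval of *Rnf43* in *Tbx1 LOF* is the only 1 of 30 that leaves out 0.

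In *Tbx1 LOF*, 1 of the 10 genes passed an unadjusted p of 0.05, against 821 of all genes (4.12%), or 2.17% in the upward direction. The median absolute log2 fold change was 0.0892 for the 10 genes, against 0.0455 for all genes, with 4 of the 10 above 0 and 6 below. Their median was -0.05, against -0.01 for all genes. All 10 mutant groups overlapped their controls, against 2.3% of all genes that did not.

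*Rnf43* had 8.70, 8.40, 8.56 and 8.48 in *Tbx1 LOF*, against 8.43, 8.41, 8.41 and 8.37 in its controls. Of the 4 mutant arrays, 3 lay above all controls and replicate 2 lay among them. It was higher by 0.13 (SE 0.06, 1.09-fold, 95% interval 1.01 to 1.19) at an unadjusted p, but its limma adjusted p was 0.9998 and the exact permutation p 0.114. The difference was 0.13 within replicates 1 and 2 and 0.13 within replicates 3 and 4. The unadjusted call was lost without mutant replicate 1 (0.07), mutant replicate 3 (0.12) or control replicate 4 (0.12), and in a fit of the *Tbx1* arrays alone (0.13, SE 0.07). *Znrf3*, the paralog with the same role, had a log2 fold change of -0.08 (SE 0.06, 95% interval 0.860- to 1.04-fold), from 10.12 to 10.40 in mutants and 10.28 to 10.38 in controls.

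*Apcdd1* had 10.17, 9.998, 9.71 and 9.72 in *Tbx1 LOF*, against 9.82, 9.70, 9.73 and 9.70 in its controls. Replicates 1 and 2 of the mutants were above all controls, and replicates 3 and 4 were among them. The log2 fold change was 0.16 (SE 0.09, 0.983- to 1.27-fold, limma adjusted p = 0.9998), made up of 0.32 within replicates 1 and 2 and -0.01 within replicates 3 and 4. It passed an unadjusted p of 0.05 without mutant replicate 3 (0.22, adjusted p = 0.875) or 4 (0.22, adjusted p = 0.960), whereas without mutant replicate 1 it was 0.07.

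*Notum* had 7.85, 7.60, 7.77 and 7.68 in *Tbx1 LOF*, against 7.54, 7.41, 7.73 and 7.63 in its controls, a log2 fold change of 0.15 (SE 0.08, 0.984- to 1.25-fold, limma adjusted p = 0.9998). The difference was again larger within replicates 1 and 2 (0.25) than within 3 and 4 (0.05), and the groups overlapped. It passed an unadjusted p without control replicate 3 (0.20) or mutant replicate 2 (0.19), and was 0.09 without control replicate 2. *Nkd2* had 9.04, 9.47, 9.10 and 9.21 in *Tbx1 LOF*, against 9.62, 9.503, 9.26 and 9.19 in its controls. This was the largest difference among the 10 genes, -0.19 (SE 0.10, limma adjusted p = 0.9998, 0.762- to 1.01-fold), with -0.31 within replicates 1 and 2 and -0.07 within replicates 3 and 4. It passed an unadjusted p when mutant replicate 2 (-0.27) was left out, and likewise for control replicates 3 (-0.23) and 4 (-0.25), and was -0.11 without control replicate 1. The adjusted p-values of *Notum* and *Nkd2* in these fits were 0.501 or more.

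The other 5 genes had changes from -0.09 to 0.06 in *Tbx1 LOF*. *Sp5* had a log2 fold change of -0.09 (SE 0.07), with 8.04 to 8.44 in mutants and 8.33 to 8.37 in controls. Its change was -0.15 without mutant replicate 3 (past an unadjusted p, adjusted p = 0.935) and -0.02 without mutant replicate 2. *Lef1*, *Tcf7l2* and *Axin2* had -0.07, -0.05 and -0.05, and *Nkd1* had 0.06, and the intervals of these 4 held 0. Markers of other tissues moved in the same comparison. At an unadjusted p, 9 of 14 heart tube markers were higher (median of all 14, 0.77). Of liver, gut and mesothelium markers, 6 of 10 were higher (median of all 10, 0.39), with a mean of 8.31 to 9.05 in *Tbx1 LOF* against 8.03 to 8.55 in its controls. Of 10 AHF progenitor markers, 4 were lower, the targeted *Tbx1* among them, and 1 was higher. Neural crest had 2 of 10 lower, neural tube 1 of 12 lower, and pharyngeal endoderm 2 higher and 1 lower of 11. Of all genes, 4.12% passed. The part of these tissues in the *Rnf43* value was not tested.

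**Figure D3:**
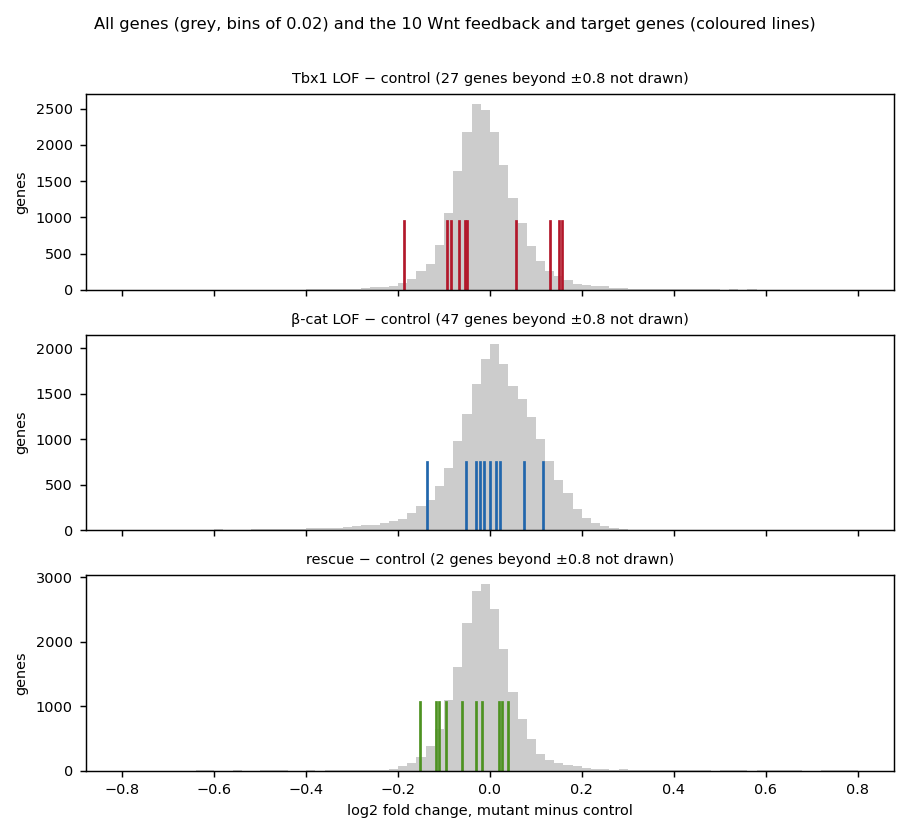
Histograms of the log2 fold changes of all 19938 genes (grey; x axis, mutant minus control; y axis, number of genes in bins of 0.02), 1 panel per comparison, with the 10 Wnt feedback and target genes as coloured lines. The lines spread from -0.19 to 0.16 in *Tbx1 LOF* and from -0.14 to 0.11 in *β-cat LOF*.

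In rescue, where *Tbx1* loss was combined with 1 floxed copy of *β-catenin*, 0 of the 10 genes passed an unadjusted p of 0.05, against 253 of all genes (1.27%). Log2 fold changes were negative for 7 of the 10 and for 60.9% of all genes, with medians of -0.05 and -0.02. The median absolute change was 0.0509 for the 10 genes and 0.0394 for all genes. The mutant and control arrays overlapped for all 10 genes, against 2.97% of all genes without overlap, and the intervals spanned 0.781-fold to 1.21-fold.

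*Lef1* had 10.39, 10.46, 10.40 and 10.48 in rescue, against 10.51, 10.70, 10.47 and 10.52 in its controls. Of the 4 rescue arrays, 3 were below every control, and replicate 4 was just above the lowest control. Its log2 fold change was -0.12 (SE 0.06, limma adjusted p = 0.9999, 0.840- to 1.01-fold) and its exact permutation p 0.0571, the lowest of the 30. *Nkd2* had 9.40, 9.24, 9.27 and 9.40 in rescue, against 9.503, 9.46, 9.38 and 9.57 in its controls, with a log2 fold change of -0.15 (SE 0.10, limma adjusted p = 0.9999; exact permutation p = 0.0857). Its value was alike within replicates 1 and 2 (-0.17) and within 3 and 4 (-0.14). *Nkd2* passed an unadjusted p in a fit of the rescue arrays alone, at the same change (SE 0.06, limma adjusted p = 0.997). It also passed with array weights (-0.18, SE 0.07, limma adjusted p = 0.668). Without control replicate 3, *Lef1* (-0.15) and *Znrf3* (-0.14, against -0.10 with all arrays) passed an unadjusted p, each with an adjusted p of 0.9999. Without control replicate 2, the highest of the 8 arrays for *Lef1*, its change was -0.07. *Lef1* also passed an unadjusted p at the same change with the replicate number as a block (SE 0.05, adjusted p = 0.9997) or with replicates 1 and 2 set apart from 3 and 4 (SE 0.05, adjusted p = 0.9998).

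*Apcdd1* was at -0.11 in rescue (SE 0.09, limma adjusted p = 0.9999), with 9.61, 9.67, 9.57 and 9.63 in rescue against 9.65, 9.95, 9.67 and 9.66 in its controls. Control replicate 2 stood well above the other 3 controls. Without that array the log2 fold change was -0.04. The other genes, *Sp5* (-0.06), *Nkd1* (0.04), *Notum* (-0.03), *Tcf7l2* (0.03), *Rnf43* (0.02) and *Axin2* (-0.02), had intervals that held 0. Among the marker lists, 0 of 14 heart tube, 0 of 12 neural tube and 0 of 8 endothelial markers passed an unadjusted p in rescue. Of the other lists, 2 of 10 AHF progenitor markers were lower and 1 of 11 pharyngeal endoderm markers was higher. The 2 lower AHF markers were *Fgf10* and *Tbx1*, which is the gene targeted in these embryos.

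Differences between the mutants were tested as differences between their changes, each against its own controls, in 30 further tests. None passed an adjusted p of 0.05, the lowest being 0.736, against 0.0502% of all genes for *Tbx1 LOF* minus *β-cat LOF* and 0 genes for the other comparisons, and 2 passed an unadjusted p. *Nkd2* differed by -0.30 (SE 0.14, adjusted p = 0.736) between its change in *Tbx1 LOF* (-0.19) and that in *β-cat LOF* (0.11), where 6.44% of all genes passed. This difference came from replicates 1 and 2, and was -0.04 within replicates 3 and 4 (SE 0.13). It no longer passed when any of 10 of the 16 arrays was left out, the smallest value being -0.21 without *β-cat* control replicate 2 (SE 0.13), or with array weights (-0.15, SE 0.13). *Apcdd1* differed by -0.27 (SE 0.12, adjusted p = 0.99998) between its change in rescue (-0.11) and that in *Tbx1 LOF* (0.16), where 1.71% of all genes passed. It no longer passed when any of 9 of the 16 arrays was left out, and was -0.06 within replicates 3 and 4 (SE 0.12), -0.18 without *Tbx1 LOF* replicate 1 (SE 0.11) and -0.20 without rescue control replicate 2 (SE 0.12). Between rescue and *β-cat LOF*, 0 of 10 passed, against 4.85% of all genes, and the largest difference was that of *Nkd2* (-0.27, SE 0.14, adjusted p = 0.938). *Nkd1* differed by 0.19 between *Tbx1 LOF* and *β-cat LOF* and by 0.18 between rescue and *β-cat LOF* (SE 0.16 for both), and neither passed. Both passed an unadjusted p with the replicate number as a block (SE 0.08, adjusted p = 0.434 and 0.656) and with replicates 1 and 2 set apart from 3 and 4 (SE 0.07, adjusted p = 0.3195 and 0.628). For *Axin2* the 3 differences were -0.06 (*Tbx1 LOF* minus *β-cat LOF*), 0.03 (rescue minus *Tbx1 LOF*) and -0.03 (rescue minus *β-cat LOF*), with intervals between 0.851-fold and 1.15-fold.

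**Figure D4:**
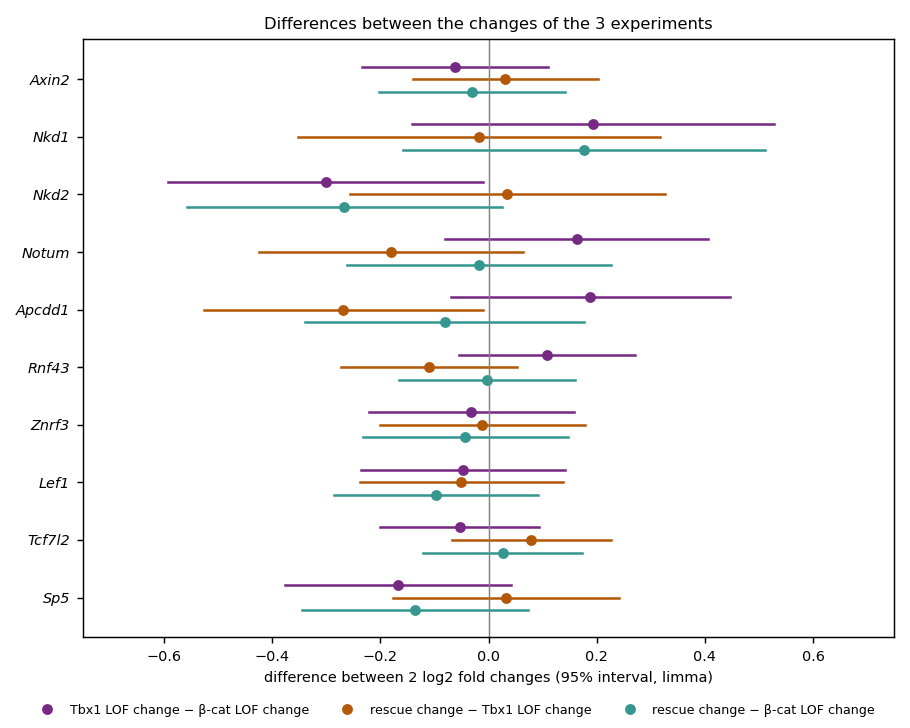
Differences between the log2 fold changes of 2 mutants (points, x axis) with 95% intervals from limma (lines) for each gene. The intervals of *Nkd2* for *Tbx1 LOF* minus *β-cat LOF* and of *Apcdd1* for rescue minus *Tbx1 LOF* leave out 0, and the other 28 hold it.

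Replicate number separated some of these genes more than genotype did. In the *Tbx1* experiment, *Nkd1* had 10.69 and 10.70 in *Tbx1 LOF* replicates 1 and 2 and 10.17 and 10.19 in replicates 3 and 4. Its controls showed the same split, with 10.68 and 10.51 in replicates 1 and 2 and 10.19 and 10.14 in replicates 3 and 4. The difference between the replicate pairs over these 8 arrays was 0.47, with no overlap, against a mutant change of 0.06. The sources used here do not give the batch of each array, so what the replicate numbers stand for is not known.

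*Axin2* was likewise higher in replicates 1 and 2 of the *Tbx1* experiment (9.84 to 9.92) than in replicates 3 and 4 (9.59 to 9.76), by 0.17. *Nkd2* and *Apcdd1* differed by 0.22 and 0.21 between the replicate pairs, with overlap. Such splits were common across the array: of all 19938 genes, 5091 did not overlap between the replicate pairs in the *Tbx1* experiment, 2908 in the *β-cat* experiment and 684 in the rescue experiment, against 2, 0 and 0 of the 10 genes. The difference between replicate pairs was larger than the mutant change for 7 of 10 genes in the *Tbx1* experiment, 6 of 10 in the *β-cat* experiment and 2 of 10 in the rescue experiment, against 71.5%, 60.4% and 54.7% of all genes in the same order. In the *β-cat* and rescue experiments *Nkd1* stayed between 10.05 and 10.42, and its pairs differed by 0.12 and 0.0023.

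**Figure D5:**
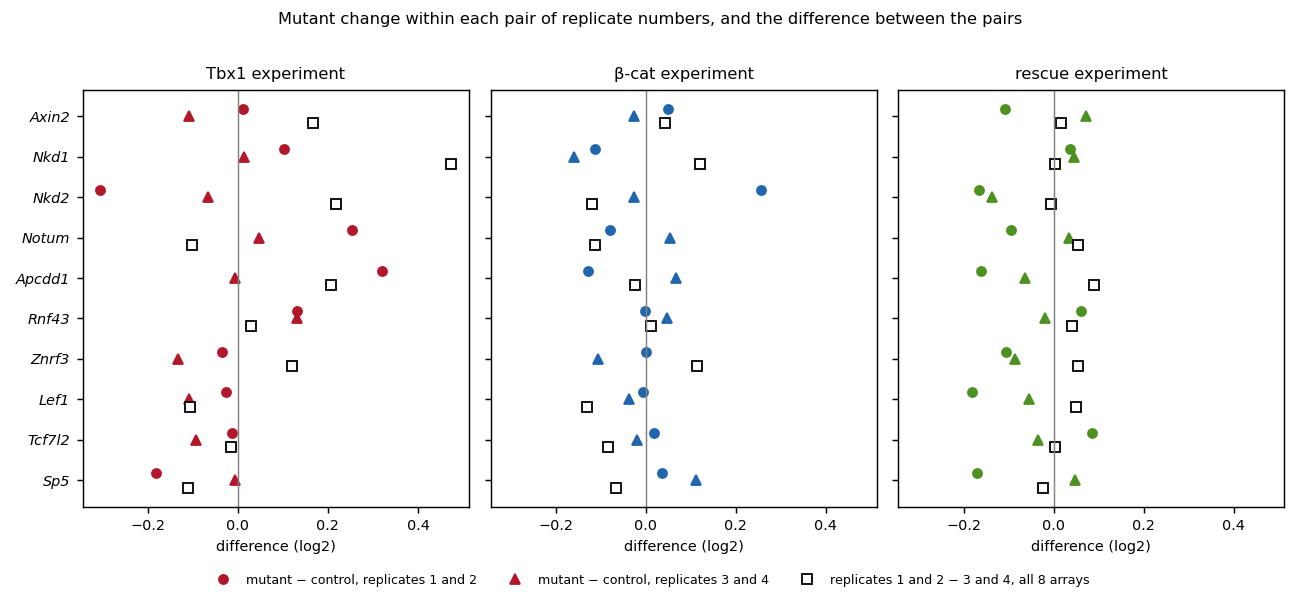
For each gene and experiment, the log2 difference of mutant minus control within replicates 1 and 2 (circles) and within replicates 3 and 4 (triangles), and the difference of replicates 1 and 2 minus 3 and 4 over all 8 arrays (open squares), on the x axis. *Nkd1* has the largest replicate difference (0.47 in the *Tbx1* experiment), and *Rnf43* has the same mutant difference (0.13) in both pairs there.

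Other genes of the pathway were counted from 6 lists of 115 measured genes in all. At an unadjusted p, 7 were higher and 6 lower in *Tbx1 LOF* (11.3%, against 4.12% of all genes), 2 higher and 4 lower in *β-cat LOF* (5.22%, against 5.72%), and 0 higher and 2 lower in rescue (1.74%, against 1.27%), and none passed an adjusted p. None of 18 receptors and co-receptors and none of 17 genes of the destruction complex and cytoplasmic relay passed an unadjusted p in any mutant. Of 13 measured nuclear partners of β-catenin, *Tcf7l1*, mostly known as a repressor, passed in *Tbx1 LOF* at -0.11 (SE 0.05, adjusted p = 0.9998) and none passed in *β-cat LOF* or rescue.

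Among 31 other genes reported as Wnt targets, 3 were higher and 4 lower in *Tbx1 LOF*, 1 higher and 1 lower in *β-cat LOF* and 0 higher and 2 lower in rescue, to be read against 4.12%, 5.72% and 1.27% of all genes in that order. *Fgf10*, an AHF growth factor gene, had 9.54, 9.45, 9.03 and 9.19 in *Tbx1 LOF*, against 9.60, 9.73, 9.78 and 9.67 in its controls, all mutants below all controls (-0.39, SE 0.11, adjusted p = 0.398). Lack of overlap, found for 2.3% of all genes in that mutant, was a condition for naming *Fgf10*. In rescue it had 9.10, 9.37, 9.10 and 9.03, against 9.63, 9.95, 9.44 and 9.46 in its controls (-0.47, SE 0.11, adjusted p = 0.9999), and it is also an AHF marker. *Fgf9*, another growth factor gene, was lower in *Tbx1 LOF* by 0.27 (SE 0.07, adjusted p = 0.398), and *Ccn4* and *Cd44* were higher by 0.20 (SE 0.09) and 0.17 (SE 0.08). Among the ligands and secreted regulators, *Wnt2* was higher in *Tbx1 LOF* by 0.77 (SE 0.21, adjusted p = 0.398) and *Sfrp5*, which binds Wnt ligands, by 1.02 (SE 0.26, adjusted p = 0.336), while *Wnt5a* was lower by 0.20 (SE 0.08, adjusted p = 0.901). In *β-cat LOF*, *Wnt2* (-0.51, SE 0.21) and *Ccn4* (-0.19, SE 0.09) passed an unadjusted p in the opposite direction, and neither passed an adjusted one. *Sfrp5*, *Wnt5a*, *Fgf10*, *Fgf9* and *Cd44* did not pass there. Of the 115 genes, 2 higher and 4 lower passed in *β-cat LOF* (5.22%, against 5.72% of all genes).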

How the data were processed

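The authors deposited log2 intensities made from the arrays by RMA in the oligo package (versions not given in the sources used here), with background correction, quantile normalization and summarization per probe set. The methods also name ComBat and blocking for batch, and whether the deposited values include ComBat is not stated. From 35556 probe sets, those with several symbols (1621) or none (12146) were left out and the other 21789 were averaged per gene (999 genes had more than 1), giving 19938 genes. Of these, 19856 matched the reference by gene identifier. No filter on low values was applied.

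One linear model of 6 group means over all 24 arrays was fitted with limma 3.58.1 (R 4.3.3), as mutant minus its own control, with Benjamini-Hochberg adjustment over all genes. Single genes were also compared by two-sided exact permutation tests of 4 arrays against 4. The members and lists were chosen with earlier results of these data known. All 10 members are named, and from other Wnt lists at most 4 genes per list and comparison, with an unadjusted p under 0.05 and either a fold over 1.5 or no overlap between arrays. *Wnt2* and *Ccn4*, named by this rule in *Tbx1 LOF*, are also given in *β-cat LOF*, where they met only the unadjusted p. Alternatives changed the arrays fitted, blocks, scaling, probe sets, filter and variance model, and each array was left out in turn. Same-numbered mutant and control arrays deviated together in all 4 *Tbx1* pairs (r = 0.157 to 0.494). The same number was the best match for 1 of the 4 mutants there, so pairing by number was not established. The main fit used no pairing, and replicate blocks were tried as alternatives. No identical arrays were found; nothing says that replicates came from separate litters, so p-values measure only the spread between these samples. Precision is limited by how many arrays there are. The code was tested on simulated data. Plots used matplotlib 3.10.9 (Python 3.11.15).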

Additional observations from a re-analysis of the deposited data

Results flagged for a closer look

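Of 60 groups of 4 arrays (10 genes in 6 groups), 6 held an array whose gap to its nearest neighbour was a larger share of the group's range than Dixon's 95% critical value, and chance flags about 1 in 20. In *β-cat LOF*, replicate 1 was low for *Lef1* (10.27, against 10.48 to 10.52 in the other 3), replicate 2 was low for *Sp5* (8.13, against 8.30 to 8.33) and replicate 4 was high for *Notum* (8.04, against 7.68 to 7.72). In rescue, replicate 1 was high for *Znrf3* (10.32, against 10.22 to 10.23). Among controls, replicate 2 of the *Tbx1* experiment was low for *Tcf7l2* (10.37, against 10.49 to 10.50), and replicate 2 of the rescue experiment was high for *Apcdd1* (9.95, against 9.65 to 9.67).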

How the results depend on the processing

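No member passed an adjusted p of 0.05 in any setting tried, where the lowest was 0.305. Of 720 values with 1 array left out, 22 lost and 14 gained an unadjusted p under 0.05, and of 720 in 12 other settings, 8 lost and 29 gained it. No called value turned its sign. Among values that passed in neither fit, 49 turned their sign with 1 array left out and 34 in the other settings. The cause was not tested for any. The replicate block left *Rnf43* past that p in *Tbx1 LOF*, brought in *Nkd1* in *β-cat LOF* (SE 0.05, adjusted p = 0.502) and *Lef1* in rescue (SE 0.05), and gave 0 genes at an adjusted p for *Tbx1 LOF*, against 6, and 2 for *β-cat LOF*, against 0. Pairing by number was not established in any experiment. The same number was the best match for 1, 2 and 1 of 4 mutants in the *Tbx1*, *β-cat* (r = 0.0889 to 0.479) and rescue experiments (r = -0.06 to 0.256). Members at an unadjusted p numbered 1 in *Tbx1 LOF*, 0 in *β-cat LOF* and 0 in rescue, and 1, 1 and 0 for *Tbx1 LOF* minus *β-cat LOF*, rescue minus *Tbx1 LOF* and rescue minus *β-cat LOF*. With the replicate block the counts that differed were 1 in *β-cat LOF*, 1 in rescue, 2 for *Tbx1 LOF* minus *β-cat LOF* and 1 for rescue minus *β-cat LOF*, against 8.97%, 2.39%, 9.14% and 7.37% of all genes in that order. With replicates 1 and 2 against 3 and 4 as a block they were 1, 1, 2 and 2, against 1753, 524, 1895 and 1450 of all 19938 genes, with 10 genes at an adjusted p in *Tbx1 LOF*. In fits of the experiments compared alone they were 0 in *Tbx1 LOF*, 1 in rescue (*Nkd2*), and 0, 0 and 2 for the differences. These fits gave 0 genes at an adjusted p in *Tbx1 LOF*. The shares of all genes were 3.08% in *Tbx1 LOF*, 4.15% in rescue, and 4.79%, 2.33% and 6.35% for the differences. Replicates 1 and 2 alone gave 3 members in *Tbx1 LOF* (*Apcdd1*, *Notum* and *Nkd2*) and 3, 2 and 1 for the differences, against 10.5% of all genes in *Tbx1 LOF* and 11.9%, 4.86% and 5.12% for the differences, with 0, 3 and 1 genes at an adjusted p in *Tbx1 LOF*, *β-cat LOF* and rescue. Replicates 3 and 4 alone gave 0 members in *Tbx1 LOF*, 1 in *β-cat LOF* (*Nkd1*, -0.16, adjusted p = 0.543, against 8.31% of all genes) and 0 for the first 2 differences, with 0 genes at an adjusted p in *Tbx1 LOF*. The shares there were 5.63% in *Tbx1 LOF* and 4.36% and 4.97% for those differences. Repeated quantile normalization gave 3 members in *Tbx1 LOF* (against 4.98% of all genes), 1 for rescue minus *β-cat LOF* (against 5.17%) and 1 gene at an adjusted p in *β-cat LOF*. Array weights gave 3 members in rescue (*Lef1*, *Nkd2* and *Znrf3*, against 6.1% of all genes), 2 and 1 for the last 2 differences (against 5.19% and 6.38%) and 1 gene at an adjusted p in rescue. Leaving out 1 array, members at an unadjusted p ranged from 0 to 3 in *Tbx1 LOF*, 0 to 0 in *β-cat LOF*, 0 to 2 in rescue, and 0 to 2, 0 to 1 and 0 to 1 for the differences, and genes at an adjusted p from 0 to 32, 0 to 42 and 0 to 0 in the 3 mutants. The shares of all genes at an unadjusted p ran from 3.05% to 6.48%, 2.94% to 8.14% and 0.923% to 2.26% in the 3 mutants. For the differences they ran from 4.73% to 10.8%, 1.08% to 3.53% and 2.68% to 7.29%. With 4 arrays a group, a change of any size inside a gene's interval stays compatible with its values, including 0 where the interval holds it.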
